A study of Mus musculus with 20 samples.

Results

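The nuclear-encoded respiratory chain genes were described in the mouse cerebellum. Members were chosen by name: protein-coding genes whose symbol starts with Nduf (assembly factors named Ndufaf were left out), Uqcr, Cox4 to Cox8 or Atp5, or is Sdha, Sdhb, Sdhc, Sdhd, Cyc1 or Cycs. Of 88 genes with such a symbol, 84 had a mean CPM (counts scaled to library depth) of at least 1 over the 20 libraries. They stand among 21897 protein-coding genes of the read count table, of which 13337 reached the same mean. The 84 members comprised 36 genes of complex I, 4 of complex II, 9 of complex III, 17 of complex IV, 17 of complex V and cytochrome c (Cycs). Ndufa4 and its paralogue Ndufa4l2 were placed in complex IV. Atp5s was kept in complex V by its name, without being a subunit. Below the limit were Cox7b2 (mean 0.726 CPM), Cox8b (0.645 CPM), Cox8c and a second Atp5o entry, the last 2 with no reads in any library.

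Whole-cerebellum RNA was sequenced from 20 C57BL/6J mice, with 1 mouse per library. At 9 weeks, 3 WT mice that received the AAV vector for the CAG-targeting shRNA A4 (shA4) were compared with 3 untreated WT mice (NT). At 25 weeks, 5 SCA7 140Q/5Q knock-in mice with shA4 and 5 with the scrambled shRNA (shSCR) were compared with 4 untreated WT mice. SCA7 140Q/5Q mice carry a CAG-expanded Atxn7 allele beside a normal one and model spinocerebellar ataxia type 7. The labels call the time points 9 and 25 weeks, and these names are used here. The study's text counts its time points from the injection of young mice and gives the late one as a smaller number than the label, so the names should not be read as ages. According to the methods, the vector was AAV PHP.eB injected retro-orbitally, the vector also expressed eGFP, and untreated mice received saline. From eGFP images of injected mice, the paper reports high transduction of Purkinje cells (PCs) and scarce transduction of granule neurons. Because no SCA7 mouse was left without vector, genotype and vector cannot be told apart in the comparisons of SCA7 with WT mice.

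Between 31465586 and 54570503 reads per library were counted on genes. Atxn7, whose expanded allele shA4 is meant to lower, had 44.4 to 51.7 CPM in the SCA7 mice with shA4 and 45.6 to 53.4 CPM with shSCR (log2 fold change -0.04, SE 0.05, adjusted p = 0.842, edgeR). The counts do not separate the expanded from the normal allele, so this value does not check the shRNA. Marker genes of PCs and granule neurons were detected in every library, with summed levels of 7168 to 11529 CPM over 9 PC markers and 4353 to 5946 CPM over 7 granule neuron markers.

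The respiratory chain of the inner mitochondrial membrane passes electrons from NADH (complex I) and succinate (complex II) through complex III and cytochrome c to oxygen at complex IV. The proton gradient built on the way drives ATP synthesis by complex V. Apart from a small set encoded in mitochondrial DNA, the subunits come from nuclear genes, and neurons depend on this supply of ATP for ion pumping and synaptic transmission. Several complex IV subunits exist in isoforms, among them Cox6a1 of most tissues and Cox6a2 of heart and skeletal muscle, and Cox6b1 of most tissues and Cox6b2 of testis. NRF1 and the ETS factor GABP are well known activators of nuclear respiratory genes.

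Promoter sequences of RefSeq (GRCm38.p6, from 250 bases before to 50 bases after the gene start) were matched for 68 of the 84 members. The NRF1 core GCATGCGC was searched on both strands, where matches can overlap, and each promoter was counted once. It was found in 11 of these promoters (16.2%), against 4.07% of 16842 promoters in all. The ETS core CCGGAAG was found in 16 member promoters (23.5%, against 13.2% of all), and the YY1 core AAGATGGCG in 7 (10.3%, against 2.23%). The NRF1 core was present in 3 of 32 complex I promoters, 1 of 3 of complex II, 2 of 5 of complex III, 1 of 12 of complex IV, 3 of 15 of complex V and in the Cycs promoter. A match describes these letters and does not show binding. The following 4 windows of 28 bases belong to members described below, which were selected because they span complexes II, III and IV and cytochrome c. They run 5′ to 3′ on the strand of the gene, with the NRF1 core in capitals.
Sdhb (iron-sulfur subunit, chr4:140961207-140961234, plus strand, core 54 bases before the start): agcccagtggGCATGCGCcctacgggcc
Uqcr11 (small complex III subunit, chr10:80406808-80406835, minus strand, core across the start): tcgccttcacGCATGCGCtatacgtctg
Cox6a1 (complex IV, chr5:115349101-115349128, minus strand, core 160 bases before the start): ggaacggggcGCATGCGCgctctcgctc
Cycs (cytochrome c, chr6:50566612-50566639, minus strand, core 60 bases before the start): atgctagctcGCATGCGCgcgcacaaac
No promoter entry was matched for Cox6a2 and Cox4i1.

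Levels were compared between genes per kb of the principal transcript (CPM per kb) in the untreated WT mice at 25 weeks. The catalytic β subunit of ATP synthase, Atp5b, was highest with 744 CPM per kb, followed within complex IV by Cox4i1 with 524 CPM per kb. The highest member was Ndufc2 in complex I (173.4 CPM per kb), Sdha, the flavoprotein that oxidises succinate, in complex II (168.2 CPM per kb) and Uqcrh in complex III (221 CPM per kb). The median members of the complexes lay close together, at 83.4 CPM per kb for complex I, 82.5 for complex II, 108 for complex III, 115 for complex IV and 103 for complex V. The spread within a complex was wider than that between them, with 6.83 to 173.4 CPM per kb in complex I and 1.80 to 744 CPM per kb in complex V. Part of this spread depends on the transcript length used. The lowest value in complex I was that of Ndufab1, whose principal transcript has 3479 bases, while its annotated transcripts have a median of 502 bases. Cycs had 2.95 CPM per kb, over a long principal transcript.

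**Figure D1:**
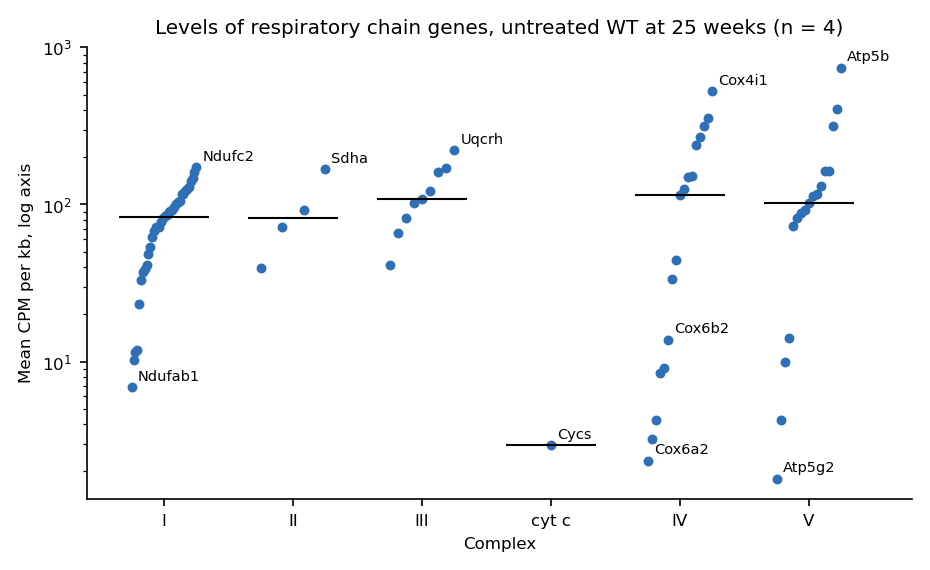
Mean level of each of the 84 members in untreated WT mice at 25 weeks (n = 4), in CPM per kb on a log axis, grouped by complex. Each point is 1 gene and the bar is the median of the complex. The medians of complexes I to V lie between 82.5 and 115 CPM per kb, while single members range from 1.80 (Atp5g2) to 744 (Atp5b).

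Isoform families, grouped by gene name, were each dominated by 1 gene. This held least for Cox7a2, beside which Cox7a2l, a related gene rather than an exchangeable isoform, stood at 22.1% per kb. At 25 weeks in untreated WT mice, Cox6a2 stood at 0.658% of the level of Cox6a1 (both per kb), Cox4i2 at 0.810% of Cox4i1, and Ndufa4l2 at 1.02% of Ndufa4. Cox6b2 reached 5.74% of Cox6b1, and Cox7a1, the heart and muscle isoform, reached 5.94% of Cox7a2. The 3 genes Atp5g1, Atp5g2 and Atp5g3 encode the same mature c subunit of the ATP synthase ring. Atp5g3 had 316 CPM per kb, Atp5g1 had 4.22 and Atp5g2 had 1.80. The value of Atp5g1 depends on its long principal transcript, of 4715 bases against 723 bases for Atp5g3. Without the division by length, the means in these mice were 19.9 CPM for Atp5g1 and 228 CPM for Atp5g3. Cox7b and Cox8a are the members of their families that passed the limit, with group means of 111 to 124 CPM and 148 to 175 CPM.

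Reads of 49 bases can be lost where a gene has near-identical copies. All 49-base words of the principal transcript were unique to the gene in 36 members, while in 12 members over 30% of the words also occurred in another gene. Those 12 members had a median of 41.3 CPM per kb, against 98.3 CPM per kb in the 36 unique members. Atp5g2 (87.4% shared), Atp5l (84.9%), Cox7c (53.0%) and Atp5o (50.9%) are therefore uncertain in level. CAG runs, the sequence that shA4 targets, were short: the longest in a member was 4 CAG, in Atp5o, and 81 members had a longest run of 1 or 2.

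The 84 members together took 0.962% to 1.16% of the protein-coding reads of a library. Untreated WT mice had 1.04% to 1.16% at 9 weeks (mean 1.09%, SD 0.0601, n = 3) and 0.962% to 1.02% at 25 weeks (mean 0.996%, SD 0.0266, n = 4). WT mice with shA4 had 1.03% to 1.09% (n = 3), SCA7 mice with shSCR 1.02% to 1.07% (n = 5) and SCA7 mice with shA4 1.01% to 1.09% (n = 5). The 2 untreated WT groups did not overlap, while both SCA7 groups overlapped with the WT mice of the same time point.

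**Figure D2:**
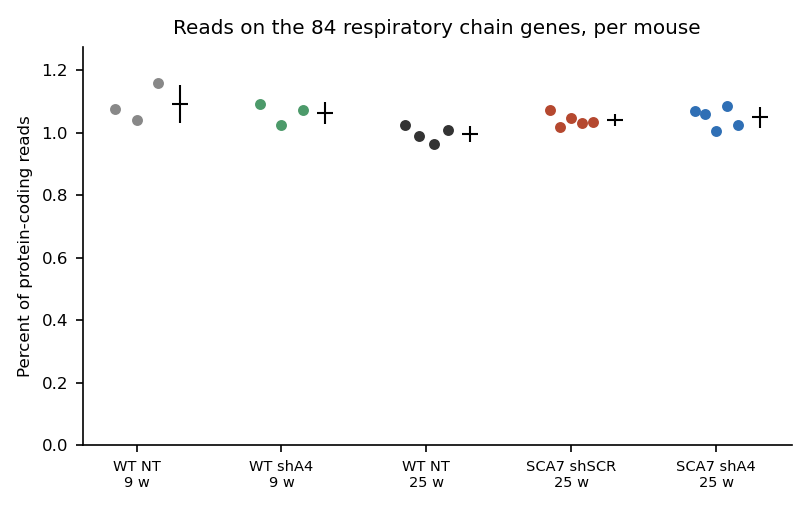
Percent of protein-coding reads counted on the 84 members, 1 point per mouse, with the mean and SD of each group beside the points. The lowest value, 0.962%, belongs to an untreated WT mouse at 25 weeks. That group reaches 1.02% and overlaps with both SCA7 groups, while the untreated WT mice at 9 weeks reach 1.16%.

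The first question was whether respiratory chain genes are altered in the SCA7 cerebellum. In SCA7 mice with shSCR against WT mice at 25 weeks, the great majority of members did not pass the test. The 2 called lower, minor complex IV isoforms, were a share near that of all genes. Calls required a fold change above 1.3 together with an adjusted p under 0.05 (edgeR, quasi-likelihood test, Benjamini-Hochberg over 14862 genes). Of 84 members, 2 (2.38%) were called, both lower (Cox6a2 and Cox6b2), where 2.66% of all genes tested were called lower. At an adjusted p under 0.05 of any size, the same 2 members were lower and 1 was higher (Cox4i1), where 8.65% of all genes were lower and 6.89% higher. The median log2 fold change of the members was 0.01, beside 0.00 over all genes tested, with 46 members above and 38 below 0.

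The estimates were precise for most members. The 95% confidence interval of the fold change lay inside 1.3-fold in either direction for 79 of 84 members, including all members of complexes I, II and III. The medians by complex were -0.0041 (complex I), 0.01 (II), 0.01 (III), 0.01 (IV) and 0.02 (V) on the log2 scale. Among the 36 members of complex I the log2 fold change ranged from -0.15 to 0.10, and none had an adjusted p under 0.05. In complex II, Sdha, Sdhb, Sdhc and Sdhd had log2 fold changes of 0.02, -0.07, 0.00 and 0.08. Sdhd, a membrane anchor of the complex, had 89.8 to 97.3 CPM with shSCR and 87.7 to 89.8 CPM in WT mice, and its adjusted p was 0.0587.

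Cox6a2 was the member with the largest change. Its mean over the 20 libraries, 1.23 CPM, was just above the limit of 1 for members. Its group means were 1.52 to 2.30 CPM in the WT groups, but 0.772 CPM with shSCR and 0.680 CPM with shA4. It thus passed the limit through its WT values, a choice that favours a fall in SCA7 mice. In WT mice at 25 weeks it had 1.33, 1.46, 1.69 and 1.88 CPM, from 50 to 90 reads per library. In SCA7 mice with shSCR it had 0.55, 0.79, 0.79, 0.80 and 0.93 CPM, from 21 to 32 reads. All 5 SCA7 values lay below all 4 WT values. The log2 fold change was -1.04 (SE 0.21, adjusted p = 0.00302), which is 0.485 times the WT level, and it had an adjusted p under 0.05 in all 16 alternative analyses (-1.12 to -0.92). Its partner Cox6a1 had 191 to 216 CPM with shSCR and 196 to 211 CPM in WT mice, with a log2 fold change of -0.0036 (SE 0.04, 95% interval -0.10 to 0.09).

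Cox6b2 had 7.35, 7.43, 7.798 and 9.62 CPM in WT mice and 4.81, 5.01, 5.31, 6.16 and 7.36 CPM in SCA7 mice with shSCR. The groups touched, since the highest SCA7 mouse lay just above the lowest WT mouse. The log2 fold change was -0.49 (SE 0.15, adjusted p = 0.0335). This call was lost without shSCR mouse 1 (-0.44, adjusted p = 0.0732), 4 (-0.46, 0.0794) or 5 (-0.43, 0.0839) and without WT mouse 3 (-0.50, 0.0578) or 4 (-0.39, 0.119), and with the replicate number as a block (-0.50, 0.0696). Its partner Cox6b1 had 148 to 162.9 CPM with shSCR and 138 to 156 CPM in WT mice (log2 fold change 0.08, SE 0.04, adjusted p = 0.239).

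Cox4i1, a nuclear-encoded subunit of complex IV that most tissues use, had 418, 422, 423, 439 and 440 CPM in SCA7 mice with shSCR and 386, 394, 412 and 412 CPM in WT mice. The groups did not overlap, but the difference was small, 6.99% (log2 fold change 0.10, SE 0.03, adjusted p = 0.0491), and it kept an adjusted p under 0.05 in 4 of 16 alternative analyses (adjusted p 0.00655 to 0.147). Cox4i2, the isoform known from lung, had 2.80 to 3.10 CPM with shSCR and 2.90 to 3.38 CPM in WT mice (log2 fold change -0.08, SE 0.09). Among the other genes of these families, Cox7a1 (0.14, SE 0.11), Cox7a2 (0.01, SE 0.05), Cox7a2l (0.02, SE 0.05), Cox7b (-0.06, SE 0.05), Cox8a (0.03, SE 0.06) and Ndufa4 (-0.02, SE 0.04) did not pass the test. Ndufa4l2, a paralogue of Ndufa4 known to respond to hypoxia, had the highest log2 fold change of all members, 0.30 with an SE of 0.17 and an adjusted p of 0.247.

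Within complex V, Atp5g1 had 19.7 to 24.6 CPM with shSCR and 19.1 to 20.5 CPM in WT mice, with a log2 fold change of 0.19 (SE 0.06) and an adjusted p of 0.0511. Atp5g3 had 236 to 249 CPM against 224 to 236 CPM (0.08, SE 0.03, adjusted p = 0.122). Atp5g2 was near 1 CPM in all groups (0.01, SE 0.18), and Atp5b had a log2 fold change of 0.06 (SE 0.03, adjusted p = 0.177). For Cycs, the mobile electron carrier, the value was -0.16 (SE 0.07, adjusted p = 0.175), with 7.59 to 9.08 CPM with shSCR and 8.47 to 9.54 CPM in WT mice.

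The second question was the state of these genes in SCA7 mice that received shA4. Against the same WT mice, 2 of 84 members (2.38%) were called, again Cox6a2 and Cox6b2 and both lower. This was near the share of all genes tested that were called lower, 2.27%. No other member had an adjusted p under 0.05, where 8.11% of all genes were lower and 5.47% higher at that limit. The median log2 fold change of the members was 0.01, as over all genes tested, with 54 members above and 30 below 0. Since both comparisons use the same 4 WT mice, their values are not independent of each other.

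Cox6a2 had 0.43, 0.57, 0.61, 0.78 and 1.01 CPM with shA4, from 17 to 39 reads per library, and all 5 mice lay below the 4 WT mice (log2 fold change -1.22, SE 0.22, adjusted p = 0.00101). Cox6b2 had 3.94, 4.29, 4.51, 5.95 and 6.25 CPM, below all WT mice in this comparison (-0.69, SE 0.15, adjusted p = 0.00497). Both had an adjusted p under 0.05 in all 16 alternative analyses. Relative to the partner gene per kb, the level of Cox6a2 was 0.658% in WT mice, 0.320% with shSCR and 0.278% with shA4, and that of Cox6b2 was 5.74%, 3.87% and 3.33%. Cox6a1 (0.02, SE 0.04) and Cox6b1 (0.10, SE 0.04, adjusted p = 0.167) did not pass the test.

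**Figure D3:**
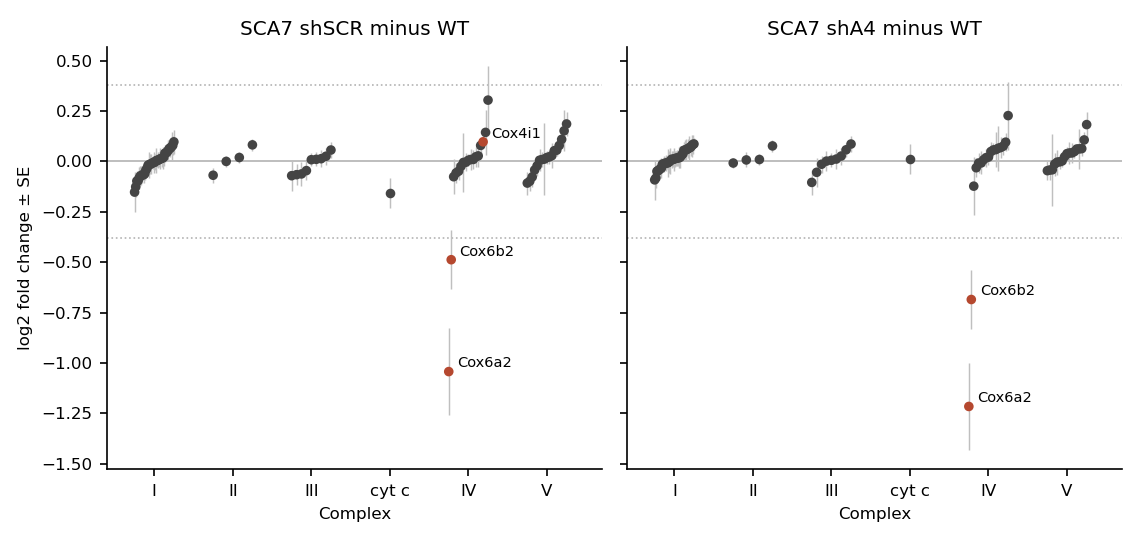
Log2 fold change (± SE) of each of the 84 members in SCA7 mice with shSCR (left) and with shA4 (right) against the same 4 untreated WT mice at 25 weeks, by complex. Red points have an adjusted p under 0.05, and dotted lines mark a fold change of 1.3. Cox6a2 (-1.04 and -1.22) and Cox6b2 (-0.49 and -0.69) lie below the lower line and the other members lie between the lines.

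Markers of some cell types moved in the same comparisons. All 9 PC markers were lower in SCA7 mice with shSCR (median log2 fold change -0.45, range -0.87 to -0.32) and with shA4 (-0.41, range -0.83 to -0.30), each with an adjusted p under 0.05. Their summed level was 10256 to 11529 CPM in WT mice, 7168 to 7983 CPM with shSCR and 7238 to 8424 CPM with shA4. Of 7 oligodendrocyte markers, 4 were lower with an adjusted p under 0.05 in each comparison, and of 7 Bergmann glia and astrocyte markers, 4 were lower at that limit in each. Of 7 granule neuron markers, 1 was lower and 1 higher at that limit with shSCR, and 1 was lower with shA4. None of 6 molecular layer interneuron markers or 6 microglia markers passed it in either comparison. Of 7 striated muscle markers, 4 had enough reads to be tested, with summed levels of 3.37 to 5.18 CPM in WT mice and 3.09 to 4.77 CPM over both SCA7 groups. With shSCR their log2 fold changes were -0.59 (Actn3, adjusted p = 0.0428), -0.25 (Tnnt3), 0.08 (Acta1) and 0.55 (Mylpf), and with shA4 -0.41, -0.66, -0.10 and 0.51, of which Actn3 with shSCR alone had an adjusted p under 0.05. Red blood cell markers (summed 2.16 to 27.0 CPM with shSCR, 2.25 to 5.18 CPM in WT mice) and choroid plexus markers (34.5 to 3811 CPM over the mice at 25 weeks) varied widely between mice. The part of these markers in the values of Cox6a2 and Cox6b2 was not tested. In such bulk samples, fewer cells of a type and less RNA per cell cannot be told apart.

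**Figure D4:**
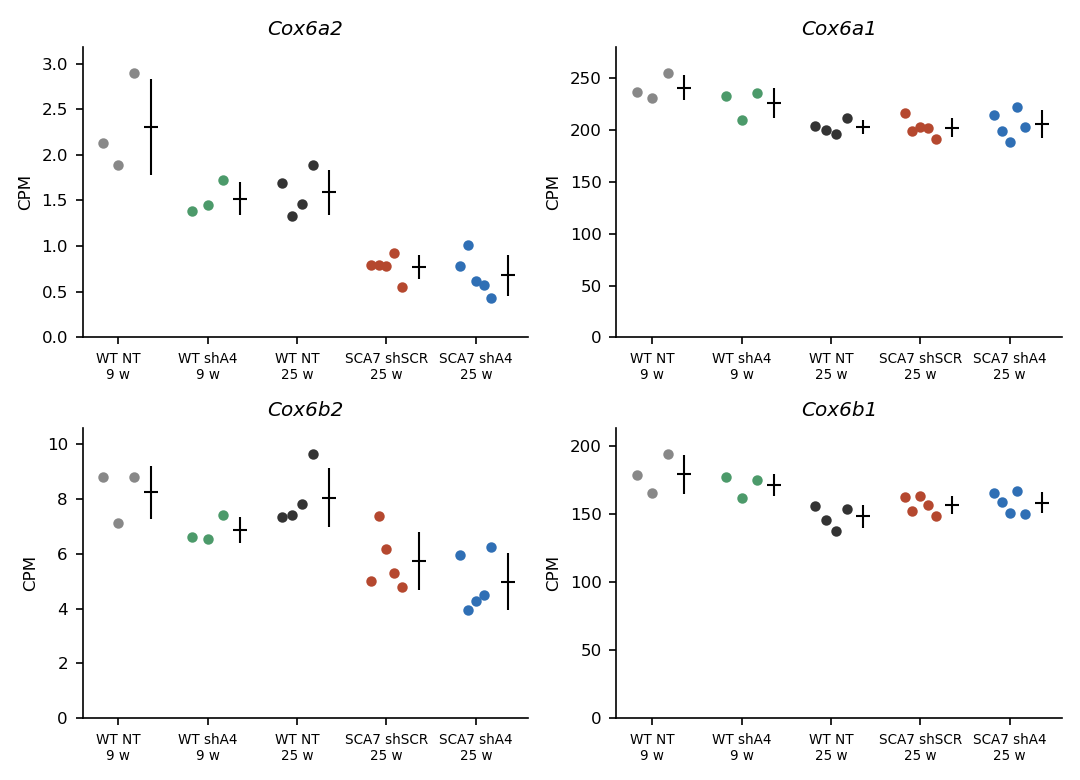
CPM of Cox6a2, Cox6a1, Cox6b2 and Cox6b1 in each mouse of the 5 groups, with the mean and SD beside the points. All 10 SCA7 mice have at most 1.01 CPM of Cox6a2, below all WT mice of the same time point, while Cox6a1 and Cox6b1 overlap between these groups.

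The direct comparison of shA4 with shSCR in SCA7 mice asked whether the shRNA altered these genes. No member had an adjusted p under 0.05, and neither did any of the 14862 genes tested (0.0%) with edgeR, while DESeq2 gave 23 genes and no member. At an unadjusted p under 0.05, 10 members were higher and 0 lower with shA4 (11.9% of members), beside 1222 of all genes tested in either direction (8.22%). The median log2 fold change was 0.02 for the members and 0.00 for all genes. The 95% interval lay inside 1.3-fold for 79 of 84 members.

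Of the 10 members, Cycs had the largest value, with 8.32 to 9.99 CPM with shA4 and 7.59 to 9.08 CPM with shSCR (log2 fold change 0.17, SE 0.07, adjusted p = 0.563). Sdhb had 102.1 to 113 CPM with shA4 and 97.6 to 108 CPM with shSCR (0.08, SE 0.04, adjusted p = 0.6002). For Cox6a2 the difference was -0.17 (95% interval -0.64 to 0.29), and for Cox6b2 it was -0.20 (-0.50 to 0.11). Both intervals include a fold change of 1.3 on the lower side.

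WT mice with the shA4 vector were compared with untreated WT mice at 9 weeks. No WT mouse received shSCR, so shA4 and the vector with its eGFP cannot be told apart here. None of the 84 members had an adjusted p under 0.05, where 10 of 14733 genes did (0.0679%). DESeq2 likewise gave 0 members, with 130 genes in all. At an unadjusted p under 0.05, 5 members were lower and 0 higher (5.95%), beside 1639 of all genes tested (11.1%). The members leaned to lower values, with 64 below and 20 above 0 and a median log2 fold change of -0.05, beside -0.0001 over all genes. The median rested on single mice, with -0.0069 without untreated mouse 3, -0.0118 without shA4 mouse 2, -0.0765 without shA4 mouse 1 and -0.0912 without untreated mouse 2. The depth of the 2 groups did not overlap, with 36245752 to 39208298 reads per library with shA4 and 47455917 to 49212593 in untreated mice. Other genes with short transcripts leaned the same way, with a median of -0.06 for 132 other genes of up to 600 bases and 0.02 for 4846 other genes over 4000 bases, and with this length trend removed per library the median of the members was -9.71e-05.

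Among the 84 members, Cox6a2 again had the lowest value. It had 1.39, 1.45 and 1.73 CPM with shA4 and 1.89, 2.13 and 2.89 CPM in untreated WT mice. The groups did not overlap, and the log2 fold change of -0.60 (SE 0.21) had an unadjusted p of 0.0155 and an adjusted p of 0.346. Cox6b2 had 6.55, 6.63 and 7.42 CPM with shA4 and 7.14, 8.78 and 8.80 CPM without (-0.27, SE 0.12, adjusted p = 0.432). PC markers did not pass the test in this comparison (0 of 9, median log2 fold change 0.05). Cycs had 8.84, 11.2 and 12.6 CPM with shA4 and 9.49, 9.76 and 10.8 CPM without (0.11, SE 0.13).

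Untreated WT mice at 25 weeks were then compared with those at 9 weeks. The time points are separate sets of mice, so time and any other difference between the sets cannot be told apart. Of 84 members, 39 were lower at 25 weeks with an adjusted p under 0.05 and 0 were higher, where 11.1% of 14875 genes were lower and 11.8% higher. The changes were small and no member was called at a fold change above 1.3, where 5.14% of genes were called. The median log2 fold change of the members was -0.15, a median change of -9.88%, beside 0.01 over all genes tested. Among genes with a mean of at least 20 CPM, 52.8% of 72 members and 15.6% of 8185 other genes were lower with an adjusted p under 0.05.

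The lower values ran through the complexes. In complex I, 16 of 36 members had an adjusted p under 0.05, in complex II 2 of 4, in complex III 6 of 9, in complex IV 6 of 17 and in complex V 9 of 17, each of them lower. The medians by complex were -0.15, -0.11, -0.15, -0.17 and -0.15 on the log2 scale. Of 84 members, 79 had a negative log2 fold change. The 5 positive ones, named after their values were seen, were Atp5l (0.16), Ndufab1 (0.13), Atp5g2 (0.11), Sdha (0.03) and Ndufb2 (0.03), and none of them passed the test.

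Cox6a1 had the smallest adjusted p, with 196, 200, 204 and 211 CPM at 25 weeks and 231, 237 and 255 CPM at 9 weeks (log2 fold change -0.25, SE 0.04, adjusted p = 0.00316). Uqcr11 had 42.1, 44.8, 46.2 and 48.97 CPM at 25 weeks and 53.8, 54.4 and 59.6 CPM at 9 weeks (-0.30, SE 0.06, adjusted p = 0.00542). In both genes every mouse at 25 weeks lay below every mouse at 9 weeks. Uqcrq, a small subunit of complex III, fell by 0.24 (SE 0.05) on the log2 scale, Atp5d, the δ subunit of the ATP synthase, by 0.25 (SE 0.05), and Atp5o, a stalk subunit, by 0.22 (SE 0.04), with adjusted p of 0.00668, 0.00698 and 0.00534 from edgeR.

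The major isoforms Cox4i1 (-0.22, SE 0.05), Cox6b1 (-0.27, SE 0.06), Cox8a (-0.24, SE 0.05), Ndufa4 (-0.18, SE 0.06), Atp5b (-0.12, SE 0.04) and Atp5g3 (-0.17, SE 0.04) were also lower with an adjusted p under 0.05. Of complex II, Sdhc (-0.14, SE 0.03) and Sdhd (-0.17, SE 0.04) passed the test and Sdha (0.03, SE 0.04) and Sdhb (-0.08, SE 0.04) did not. The minor isoforms Cox6a2 (-0.53, SE 0.19, adjusted p = 0.0713), Ndufa4l2 (-0.43, SE 0.15, adjusted p = 0.0670), Atp5g1 (-0.15, SE 0.05, adjusted p = 0.0597), Cox7a1 (-0.18, SE 0.13), Cox4i2 (-0.17, SE 0.12) and Cox6b2 (-0.03, SE 0.12) did not pass it. Cycs (-0.12, SE 0.08), Cox7a2 (-0.11, SE 0.07), Cox7a2l (-0.07, SE 0.06), Cox7b (-0.10, SE 0.06), Ndufc2 (-0.13, SE 0.07) and Uqcrh (-0.13, SE 0.06) did not either.

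Transcript length moved with this result. Respiratory chain transcripts are short, and other genes with short transcripts were also lower at 25 weeks, with a median log2 fold change of -0.11 for 138 other genes of up to 600 bases and 0.08 for 4862 over 4000 bases. In the same classes the members had medians of -0.20 (19 members) and -0.06 (2 members). For the classes between, of 600 to 1000, 1000 to 2000 and 2000 to 4000 bases, the medians were -0.16, -0.13 and -0.09 for 30, 26 and 7 members and -0.10, -0.07 and -0.01 for other genes. With the length trend removed in each library, 10 members were lower with an adjusted p under 0.05 (11.9% of 84) and 0 higher, where 8.53% of all genes were lower, and the median of the members was -0.05. Of these 10, 9 were among the 39. The count also varied with single libraries. It was 24 without WT mouse 2 and 20 without mouse 3 at 25 weeks, and 20 without mouse 1 and 15 without mouse 3 at 9 weeks. The count over all genes fell as well, from 1657 lower to 1325, 1109, 1044 and 1206 in the same fits, of 14808 to 14994 genes tested.

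**Figure D5:**
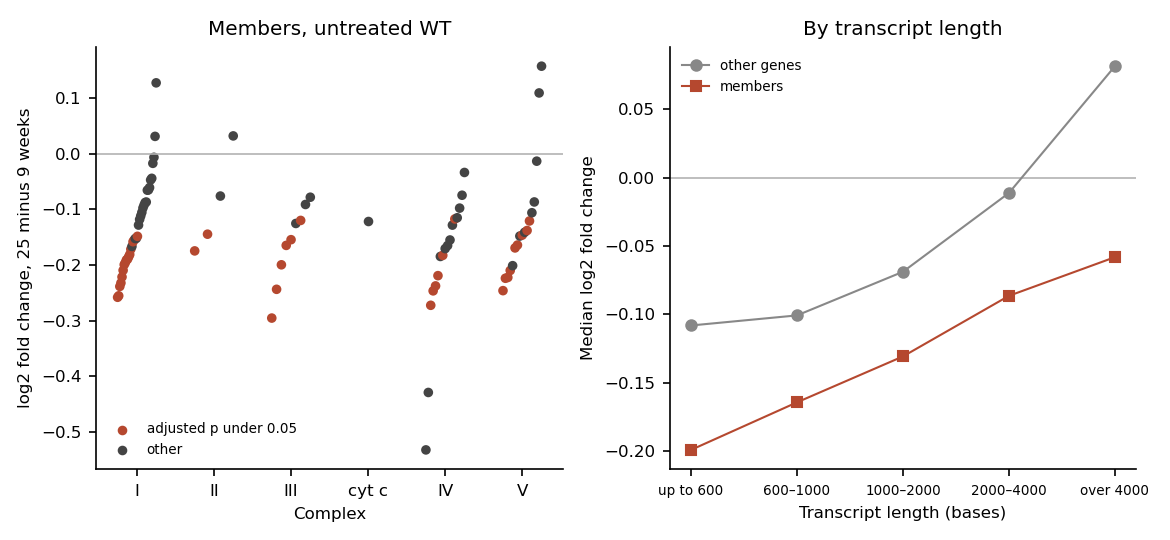
Untreated WT mice at 25 weeks (n = 4) against 9 weeks (n = 3). Left, log2 fold change of each of the 84 members by complex, with the 39 members of adjusted p under 0.05 in red. Right, median log2 fold change by transcript length class for members and for other genes, which rises with length in both, from -0.20 to -0.06 for the members and from -0.11 to 0.08 for other genes.

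Of cell type markers, 7 of 7 for oligodendrocytes were lower at 25 weeks in untreated mice (median log2 fold change -0.44), with summed levels of 5629 to 6668 CPM at 25 weeks and 7919 to 8230 CPM at 9 weeks. At an adjusted p under 0.05, 4 of 6 microglia markers were higher and 3 of 7 granule neuron markers were lower. Of 5 red blood cell markers 3 were lower at that limit (median -0.87), while the 5 choroid plexus markers had a median of 0.52 and none passed the test. Their part in the result was not tested.

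Other mitochondrial genes were counted for comparison. The shares of all genes lower at an adjusted p under 0.05 were 8.65% with shSCR and 8.11% with shA4, and those higher 6.89% and 5.47%. The counts of lower and higher genes in this paragraph are at the same limit. Of 46 assembly factors tested, 6 were lower and 1 higher in SCA7 mice with shSCR and 2 were lower with shA4, among them in both Ecsit (-0.15 and -0.16) and Tmem70 (-0.19 and -0.14), which act in the assembly of complexes I and V. None was called at a fold change above 1.3. Of 17 genes of the citric acid cycle and pyruvate dehydrogenase, 1 was lower and 1 higher in each SCA7 comparison, with Pdhb, the β subunit of pyruvate dehydrogenase E1, lower in both (-0.15 and -0.12). Of 77 mitochondrial ribosome genes, 3 were lower with shSCR and 1 with shA4, and of 95 cytosolic ribosome genes 4 and 2 were higher.

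Of 14 regulators of mitochondrial biogenesis, Esrrg was lower with shSCR (-0.14, adjusted p = 0.0335). With shA4, Polrmt, the mitochondrial RNA polymerase, was lower (-0.12, adjusted p = 0.0369) and the coactivator Ppargc1a was higher (0.11, adjusted p = 0.0454). From 9 to 25 weeks in untreated WT mice, Ppargc1a (0.16), Ppargc1b (0.44) and Pprc1 (0.29) were higher with an adjusted p under 0.05, and no regulator was lower at that limit. In the same comparison and at that limit, 6 of 17 citric acid cycle genes, 13 of 77 mitochondrial and 9 of 95 cytosolic ribosome genes were lower and 0 higher. Their medians were -0.08, -0.07 and -0.05, and 11.1% of all genes were lower at that limit.

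Of 13 mitochondrially encoded subunits, 7 had enough reads to be tested. In SCA7 mice with shSCR, mt-Co1 (-0.22, adjusted p = 0.00236) and mt-Nd1 (-0.21, adjusted p = 0.0192) were lower, and with shA4 none of the 7 passed the test. The remaining call was mt-Nd6, higher with shA4 at 9 weeks (0.69, adjusted p = 0.0142) and higher at 25 than at 9 weeks in untreated mice (0.90, adjusted p = 0.000235). The summed level was 27308 to 31581 CPM with shSCR, 31079 to 33658 CPM with shA4 and 31419 to 36887 CPM in WT mice. The difference between the SCA7 groups was higher with shA4 in 7 of 7 genes (median 0.15), and none passed the test. At an adjusted p under 0.05, the nuclear members of complexes I and IV showed no lower gene beside Cox6a2 and Cox6b2 in these mice.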

How the data were processed

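Cerebellar RNA of 20 mice was analysed (6 libraries at 9 weeks, 14 at 25 weeks), grouped by the sample labels. The authors trimmed reads with cutadapt 1.10, removed ribosomal reads with Bowtie2 2.2.8, mapped to mm10 with STAR 2.5.3a and deposited raw read counts per gene made with HTSeq 0.6.1p1. Whether HTSeq counted by strand is not given in the sources used here. Symbols and types came from GENCODE M21, which holds 55141 of the 55401 genes of the table. Levels are CPM of protein-coding reads after 1 TMM normalization over all libraries.

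Tests used edgeR 4.0.16 (R 4.3.3; TMM, filterByExpr with minimum count 10 and total 15, quasi-likelihood test), fitted to the 6 early, the 14 late and the 7 untreated WT libraries, with adjustment over all protein-coding genes tested. The fit of the 14 late libraries was tested on simulated data with the same spread for every gene, and the other fits were not. Alternatives were RLE and upper quartile normalization, no filter, DESeq2 1.42.0, a replicate block, 1 fit of all libraries, each mouse left out, and, chosen after seeing the data, a lowess length trend (span 0.3) removed per library. The members, lists and tests were chosen with earlier results of these data known, so no list is independent evidence. Named members were those called, the 5 of smallest adjusted p in each direction, isoform families, the highest member of each complex, complex II and Cycs. Replicate numbers do not pair the mice. P-values measure the spread between mice, and counting intervals were not used. A further count across both time points is not reported here.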

Additional observations from a re-analysis of the deposited data

Results flagged for a closer look

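Over 87 groups of 4 or 5 mice, 2 values of single mice stood apart from their group by Dixon's test, where chance gives about 1 in 20 groups. Cycs in WT mouse 3 at 25 weeks had 8.47 CPM, while the other 3 mice had 9.42 to 9.54 CPM. Atp5g2 in SCA7 shSCR mouse 2 had 0.906 CPM, while the other 4 mice had 1.35 to 1.47 CPM; this gene rests on 32 to 58 reads per library in that group.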

How the results depend on the processing

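In the comparison of SCA7 shSCR with WT mice, 3 members had an adjusted p under 0.05, which became 5 with DESeq2, 6 with the length trend removed (chosen after seeing the data) and 1 with the replicate block, where Cox6a2 was called and Cox6b2 was not. Leaving out 1 mouse gave 1 to 3 members, 1 to 2 of them called. Of all 14862 genes tested, 2629 passed the same limit with DESeq2, 2443 (16.4%) with the length trend removed and 2031 with the block. For SCA7 shA4 against WT, 2 members became 4 with DESeq2 and 6 with the length trend removed, and leaving out 1 mouse gave 2 to 3. Of all genes tested there, 2328 passed with DESeq2 and 2132 (14.3%) with the length trend removed. For WT mice at 25 against 9 weeks, 39 became 12 with the replicate block, 10 with the length trend removed, 40 with upper quartile normalization and 15 to 45 without 1 mouse; the median log2 fold change moved from -0.150 to -0.0491 with the length trend removed and lay between -0.18 and -0.10 without 1 mouse. At a fold change above 1.3, 0 members were called in that comparison and 0 to 1 without 1 mouse. The causes were not tested. The value of Cox6b2 in that comparison, -0.03, turned to 0.0947 with the length trend removed and ranged from -0.128 to 0.0176 without 1 mouse (0.00798, 0.00259, 0.0176 and 0.0138 in the 4 that turned). The replicate numbers were correlated between groups by -0.217 to 0.529 and do not pair the mice; the block changed no other count of members by more than 1.5 times. Over all genes, the 10 with an adjusted p under 0.05 at 9 weeks became 75 with the block, 45 with 1 fit of all libraries, 37 without the filter, 130 with DESeq2 and 1 to 73 without 1 mouse, and the 1657 lower at 25 than at 9 weeks became 686 with the block. The other counts of members kept within 1.5 times, and the other medians moved by less than the SD between mice of 0.0578. Depth limits the low isoforms, with 17 to 139 reads of Cox6a2 per library.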
